A study of Mus musculus with 12 samples.

Results

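The nuclear genes of the mitochondrial respiratory chain and ATP synthase were described on 12 exon arrays of mouse bone marrow cultures. Members were taken by symbol: every gene whose symbol starts with Nduf, Uqcr, Cox4 to Cox8 or Atp5, and Sdha to Sdhd, from probe sets (groups of array probes, here roughly per exon) that name 1 gene symbol. This gave 85 genes, of which 84 had a probe set above the filter on dim signal, out of 20711 genes measured. Cox7b2 had none. By prefix, 36 genes fell to complex I, 2 to complex I assembly factors, 4 to complex II, 7 to complex III, 17 to complex IV and 17 to ATP synthase. Ndufa4l2, a paralog of Ndufa4 that carries the complex I prefix, was kept apart. The prefix is not proof of a subunit: Cox4nb, Atp5s and Atp5sl are members by name only, and Ndufa4 is listed under complex I here although it is now known as a complex IV subunit.

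All cultures started from bone marrow progenitor cells of female C57B/6 mice, 12 week old and treated with 5-fluorouracil (5-FU), which kills dividing marrow cells. All cells overexpressed HOXA9 from an MSCV retroviral construct, and grew in DMEM with 15% FCS and the cytokines IL3, SCF and IL6 for 3 or 4 weeks. A second vector set the condition. It was empty (the vector MIY) in HOXA9+MIY, carried Meis1, a homeobox partner of HOXA9, in HOXA9+MEIS1, and carried a Meis1 lacking the DNA-binding homeodomain in HOXA9+MDHD. There were 4 arrays for each condition, 2 of them per week. The series describes 4 independent experiments per condition. Whether week 3 and week 4 arrays came from the same cultures is not given in the sources used here, so p-values measure the spread between these arrays. No untransduced marrow and no culture without HOXA9 was analysed here.

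The respiratory chain passes electrons from NADH (complex I) and succinate (complex II) through ubiquinone to complex III, cytochrome c and complex IV, which reduces oxygen. The proton gradient built by complexes I, III and IV drives ATP synthase. Subunits are encoded in part by mitochondrial DNA and mostly by the nucleus, and nuclear respiratory factor 1 (NRF1), ETS-family GABP and YY1 are known to bind at promoters of many of the nuclear genes. Blood stem cells are known for relying less on respiration than the dividing progenitors they give rise to.

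Promoter sequences are shown first, because the letters near a start site were not used by the rule that chose the members. RefSeq (GRCm38.p6) gave a window of 300 bases (250 before and 50 after the start site) for 69 of the 84 genes. The NRF1 core letters GCATGCGC, on either strand, were in the window of 10 of the 69 genes (14.5%), against 3.05% of the 27025 genes with a window. The ETS letters CCGGAAG were in 17 (24.6%) against 9.93%, and the YY1 letters AAGATGGC in 11 (15.9%) against 3.19%. The MEIS letters TGACAG were in 16 (23.2%) against 21.6% of all genes. A match is a description and not a bound site. The 10 members with the NRF1 core follow as 30 bases around the match, in the gene's direction, with matches on either strand in capitals. Where 10 letters are in capitals, a match on each strand overlaps the other.

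Sdhb (chr4:140961206-140961235, plus strand): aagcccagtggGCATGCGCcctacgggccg
Uqcr (chr10:80406807-80406836, minus strand): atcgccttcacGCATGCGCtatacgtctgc
Uqcrc1 (chr9:108936668-108936697, plus strand): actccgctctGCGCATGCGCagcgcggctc
Atp5l (chr9:44920963-44920992, minus strand): aaccaataacGCATGCGCatttcccccact
Atp5k (chr5:108434430-108434459, minus strand): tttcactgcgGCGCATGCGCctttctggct
Atp5g2 (chr15:102671070-102671099, minus strand): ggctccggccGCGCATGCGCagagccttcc
Ndufa8 (chr2:36049328-36049357, minus strand): tcgctggagacGCATGCGCagatggtaccg
Cox6a1 (chr5:115349101-115349130, minus strand): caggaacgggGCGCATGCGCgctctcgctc
Ndufa6 (chr15:82354356-82354385, minus strand): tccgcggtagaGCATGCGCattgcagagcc
Ndufa11 (chr17:56717692-56717721, plus strand): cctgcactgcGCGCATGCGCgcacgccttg

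The first 8 of these genes were lower at week 4 of culture, described next, and Ndufa6 and Ndufa11 did not pass the test. Of all 69 members with a window, 50 were lower, a share not far from 8 of 10. As examples, the 120 bases before the start site of Sdhb hold the NRF1 core, those of Uqcr (now Uqcr11) an ETS match, and those of Cox7a2l, which was higher at week 4, none of the 4 sets of letters. These 3 set no pattern: the same stretch held none in Ndufc1, Cox5a, Atp5l and Uqcrc1, which were lower at week 4. Matches are in capitals.

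Sdhb (chr4:140961151-140961270, plus strand): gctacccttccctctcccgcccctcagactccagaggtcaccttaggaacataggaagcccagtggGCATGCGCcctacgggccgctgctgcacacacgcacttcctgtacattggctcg
Uqcr (chr10:80406822-80406941, minus strand): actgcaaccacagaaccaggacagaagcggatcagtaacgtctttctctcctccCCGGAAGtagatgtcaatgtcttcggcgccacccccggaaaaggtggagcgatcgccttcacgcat
Cox7a2l (chr17:83514334-83514453, minus strand): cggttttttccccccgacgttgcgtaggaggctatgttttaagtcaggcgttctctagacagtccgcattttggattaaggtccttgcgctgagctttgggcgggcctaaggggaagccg

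Values are log2 signals by RMA, so a difference of 1 is a 2-fold change, and a gene's level can be set only against its own level on other arrays. A gene was called when limma's adjusted p (Benjamini-Hochberg over all 20711 genes) was under 0.05, in a model of condition and week over all 12 arrays. Arrays were much alike: correlations between them ran from 0.9671 to 0.9845. These were taken over all 1256831 probe sets before the filter, 20744 of them at 0 on every array. The vectors were checked through Meis1 itself, which exceeded its HOXA9+MIY level by 2.88 in HOXA9+MEIS1 (adjusted p = 1.10e-07) and by 2.60 in HOXA9+MDHD (adjusted p = 7.46e-07). Hoxa9, present in all cells, differed by 0.08 and 0.06 (adjusted p = 0.372 and 0.678). As markers of other cells, 13 of 13 late neutrophil genes were lower under Meis1 than with the empty vector (median difference -2.70), as were 10 of 13 monocyte genes with 1 higher, while 7 of 12 stem and early progenitor genes were higher and 2 lower. Meis1, which the vector carries, is 1 of those 7. In such bulk samples, fewer cells of a type and less RNA per cell cannot be told apart.

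Respiratory chain genes were lower after 4 weeks of culture than after 3, in each of the 3 conditions. Of 84 members, 61 fell, 3 rose and 20 did not pass limma's test. The background was wide: 39.8% of all genes differed between weeks, 28.1% lower and 11.7% higher. The median difference of the members was -0.29, against -0.02 over all genes tested. The 61 falls had a median of -0.38 and ran from -0.10 to -0.95, that is from 7.01% to 48.4% of the week 3 signal lost, so no member passed 2-fold. Another scaling changed the split: members counted 53 lower and 9 higher after quantile normalization, 58 and 5 after median centring, and 46 and 10 after cyclic loess. The median of the members stayed below 0 under all 3, at -0.17, -0.24 and -0.13. Of all genes called, 29.5% were higher at week 4 as deposited, and 46.2%, 41.9% and 51.2% under these scalings.

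The fall was present across samples. In 67 of the 84 genes the week 4 mean was lower in all 3 conditions, and in 6 it was higher in all 3. How many of all genes did so was not counted. Taken singly, the empty vector had a negative week difference in 74 members and in 11320 of all 20711 genes. With Meis1 these counts were 76 and 11914, and with the form without homeodomain 69 and 11849. All 6 week 4 arrays lay below all 6 week 3 arrays in 55 members, where 17.9% of all genes did so. The reverse held for 1 member, Cox7a2l, and for 4.13% of all genes. Within a condition, with 2 arrays a week, both week 4 arrays lay below both week 3 arrays in 65 members with the empty vector, 69 with Meis1 and 60 with the form without homeodomain. The same share over all genes was 38.1%, 40.3% and 31.3%. Both lay above in 4, 7 and 8 members, against 24.4%, 23.4% and 19.1% of all genes. Median differences of the members in the 3 conditions were -0.26, -0.31 and -0.25.

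**Figure D1:**
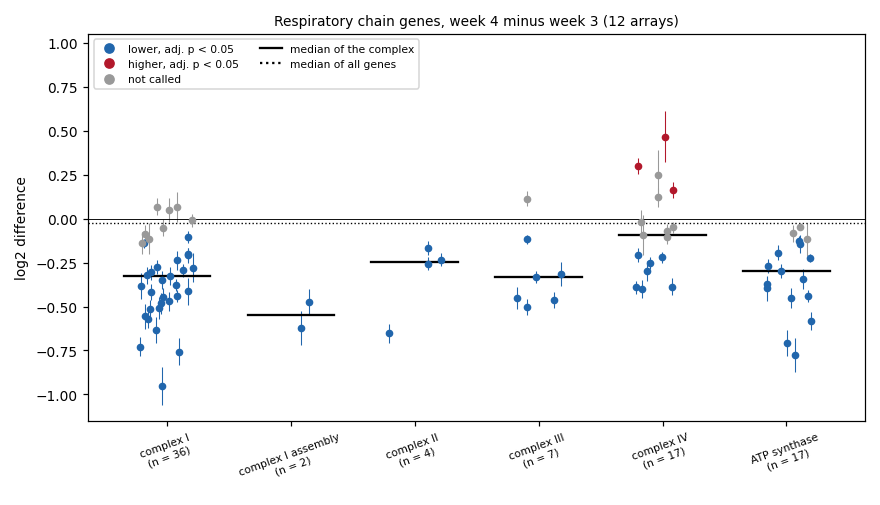
Difference in log2 signal between week 4 and week 3 (y axis) for 83 members by complex, Ndufa4l2 left out, with limma's standard error as error bars. Black bars are complex medians and the dotted line is the median of all genes. Most points of complexes I, II, III and ATP synthase lie below 0, while complex IV spans from -0.40 to 0.47, and its median of -0.09 becomes 0.0079 after cyclic loess.

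Complex I, which oxidises NADH, had 28 of 36 genes lower and 0 higher, with a median of -0.32. Quantile normalization gave 25 lower and 4 higher, and cyclic loess 21 and 5, with medians of -0.23 and -0.21. Ndufc1, a small accessory subunit of the membrane arm, had the largest fall of all members. Its signal was 10.07 at the lowest, 10.34 at the median and 10.50 at the highest of 6 week 3 arrays. At week 4 these were 9.03, 9.47 and 9.50. The weeks did not overlap, and the difference was -0.95 ± 0.107 (SE; adjusted p = 1.61e-05), 1.94-fold lower. Both of its kept probe sets were lower.

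Ndufa9, an accessory subunit at the joint of the matrix and membrane arms, went from 9.89, 10.01 and 10.11 (lowest, median and highest) at week 3 to 9.17, 9.29 and 9.41 at week 4. The groups were far apart relative to their spread, with a difference of -0.73 ± 0.053 (adjusted p = 1.04e-06) and 10 of 10 probe sets lower. Ndufa4 ran from 9.57 to 9.89 (median 9.77) at week 3 and from 8.84 to 9.32 (median 8.94) at week 4, again without overlap, a difference of -0.76 ± 0.077 (adjusted p = 8.15e-06) with 7 of 7 probe sets lower. The accessory subunit Ndufa2 went from 9.98 to 10.18 (median 10.07) down to 9.14 to 9.65 (median 9.48), with 5 of 5 probe sets lower and adjusted p = 1.91e-05. Further accessory subunits fell by 0.57 (Ndufb8), 0.56 (Ndufa5) and 0.51 (Ndufb6).

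The core subunits of the matrix arm, which hold the flavin and iron-sulphur clusters, also fell, with the exception of Ndufs3. Ndufv1, which binds NADH and the flavin, went from 10.40 to 10.62 (median 10.55) at week 3 to 10.02 to 10.22 (median 10.07) at week 4, a difference of -0.45 ± 0.051 (adjusted p = 1.96e-05). Ndufs1, the large iron-sulphur subunit, ran from 9.50 to 9.75 (median 9.68) and then from 9.10 to 9.35 (median 9.16). Its difference was -0.47 ± 0.053 (adjusted p = 1.71e-05), with 20 of 22 probe sets called lower. In both genes every week 4 array was below every week 3 array. The iron-sulphur subunits Ndufv2 and Ndufs8 fell by 0.44 and 0.42, and Ndufs7 by 0.14 (adjusted p = 4.01e-04), a call that Ndufs7 lost in 1 of 3 other scalings. Ndufs3, a core subunit of the matrix arm, had nearly the same signal in both weeks: 10.10 to 10.18 (median 10.11) and 10.06 to 10.18 (median 10.12). Its difference was -0.01 (adjusted p = 0.858), which became 0.15 after quantile normalization and 0.20 after cyclic loess. Its probe sets did not move together: 6 of 16 were called higher, 3 were called lower, and they ranged from -0.36 to 0.62.

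The other complex I genes that did not pass the test were Ndufa1 (-0.11), Ndufa3 (-0.05), Ndufa6 (0.07), Ndufa7 (-0.09), Ndufa11 (-0.14), Ndufb4 (0.05) and Ndufv3 (0.07). Ndufv3 was called higher after quantile normalization (0.25, adjusted p = 0.0277) and cyclic loess (0.27, adjusted p = 0.0211). All of these are accessory subunits. The assembly factors Ndufaf1 and Ndufaf2, which help build complex I and do not stay in it, both fell. Ndufaf2 ran from 8.07 to 8.59 (median 8.30) at week 3 and from 7.44 to 7.92 (median 7.66) at week 4, a difference of -0.62 ± 0.097 (adjusted p = 2.12e-04). Ndufaf1 went from a median of 10.21 to 9.73 (adjusted p = 1.59e-04).

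In complex II, succinate dehydrogenase, all 4 genes fell, with a median of -0.24, and 2 of 4 fell after quantile normalization or cyclic loess. Sdhb, the iron-sulphur subunit whose promoter is printed above, fell most. Its signal ran from 10.04 to 10.29 (median 10.21) at week 3 and from 9.43 to 9.69 (median 9.52) at week 4. The weeks did not overlap in any condition, with a difference of -0.58 for the empty vector, -0.75 for Meis1 and -0.64 for the form without homeodomain. Over all arrays the difference was -0.65 ± 0.052 (adjusted p = 1.76e-06), and 8 of 9 probe sets were lower. Sdha, the flavoprotein that oxidises succinate, fell by 0.26 (adjusted p = 1.70e-04). The membrane anchors Sdhc and Sdhd fell by 0.23 and 0.17, and each lost its call in 2 of 3 other scalings.

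Complex III, which passes electrons from ubiquinol to cytochrome c, had 6 of 7 genes lower, with a median of -0.33. Uqcr, a small subunit, ran from 10.20 to 10.39 (median 10.27) at week 3 and from 9.63 to 9.88 (median 9.80) at week 4, a difference of -0.50 ± 0.046 (adjusted p = 3.91e-06). Uqcrc1, a core subunit, went from 11.02 to 11.34 (median 11.12) to 10.58 to 10.81 (median 10.73), a difference of -0.46 ± 0.043 (adjusted p = 4.28e-06). The weeks were apart in both genes. Its partner Uqcrc2 fell by 0.12 ± 0.025 (adjusted p = 0.00187), and 2 of 3 other scalings ended that call. The Rieske iron-sulphur protein Uqcrfs1 fell by 0.31, and the small subunits Uqcrq and Uqcrb by 0.45 and 0.33. Uqcrh, the hinge protein at the cytochrome c site, had 0.11 (adjusted p = 0.0586), with 3 of 7 probe sets called higher.

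Complex IV, cytochrome c oxidase, was mixed as grouped by prefix: 7 of 17 genes fell, 3 rose and 7 did not pass. The 5 genes with a positive difference were Cox4i2, Cox6a2, Cox6b2, Cox7a2l and Cox8c. The prefix also counts Cox4nb here and leaves out Ndufa4, which fell. Its median of -0.09 became 0.0079 after cyclic loess, with 5 lower and 4 higher. Cox5a, a subunit of every tissue's enzyme, ran from 10.47 to 10.56 (median 10.51) at week 3 and from 10.03 to 10.19 (median 10.14) at week 4, a difference of -0.39 ± 0.039 (adjusted p = 7.15e-06) with no overlap. Cox6c fell by 0.40 (adjusted p = 3.55e-05), Cox7a2 by 0.30, Cox6b1 by 0.25, Cox6a1 by 0.22 and Cox4i1, the ubiquitous form of subunit 4, by 0.21. Of these, Cox4i1 lost its call in 2 of 3 other scalings and Cox7a2 in 1. Cox4nb, not known as a subunit, fell by 0.39. The nuclear subunits Cox5b (-0.09), Cox6b2 (0.25), Cox7b (-0.11), Cox7c (-0.07), Cox8a (-0.05), Cox8b (-0.02) and Cox8c (0.12) did not pass, and Cox5b and Cox7c rested on 1 probe set each. Cox8c was called higher under all 3 other scalings: 0.25 with quantile normalization (adjusted p = 0.00331), 0.17 with median centring (0.021) and 0.28 with cyclic loess (0.00132).

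The 3 genes that rose are alternative forms or relatives of common subunits. Cox7a2l, a relative of subunit 7a, ran from 10.41 to 10.62 (median 10.50) at week 3 and from 10.69 to 10.93 (median 10.79) at week 4. Its weeks did not overlap, the difference was 0.30 ± 0.044 (adjusted p = 1.43e-04; 1.23-fold), and it was higher in each condition, by 0.25, 0.32 and 0.33. All 6 probe sets were higher at week 4, 3 of them past the test, and the call held in all 20 alternatives run, at 0.24 to 0.49. Cox4i2, the form of subunit 4 known from lung and low oxygen, had 8.78 and 8.64 at week 3 and 8.75 and 9.04 at week 4 in HOXA9+MIY. In HOXA9+MEIS1 these were 8.75 and 9.13, then 9.34 and 9.25, and in HOXA9+MDHD 8.75 and 8.90, then 9.28 and 10.09. The weeks overlapped, and the highest value came from a single HOXA9+MDHD array. The difference was 0.47 ± 0.144 (adjusted p = 0.0208). It lost its call without the HOXA9+MEIS1 week 3 replicate 1 array (adjusted p = 0.0506) or the HOXA9+MDHD week 3 replicate 1 array (0.053). Cox6a2, the form of heart and muscle, went from a median of 9.07 to 9.21, a difference of 0.16 ± 0.044 (adjusted p = 0.0107) that was called in 1 of its 3 probe sets, and it was not called without the filter on dim probe sets (adjusted p = 0.148) or with the mean of probe sets (0.147).

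**Figure D2:**
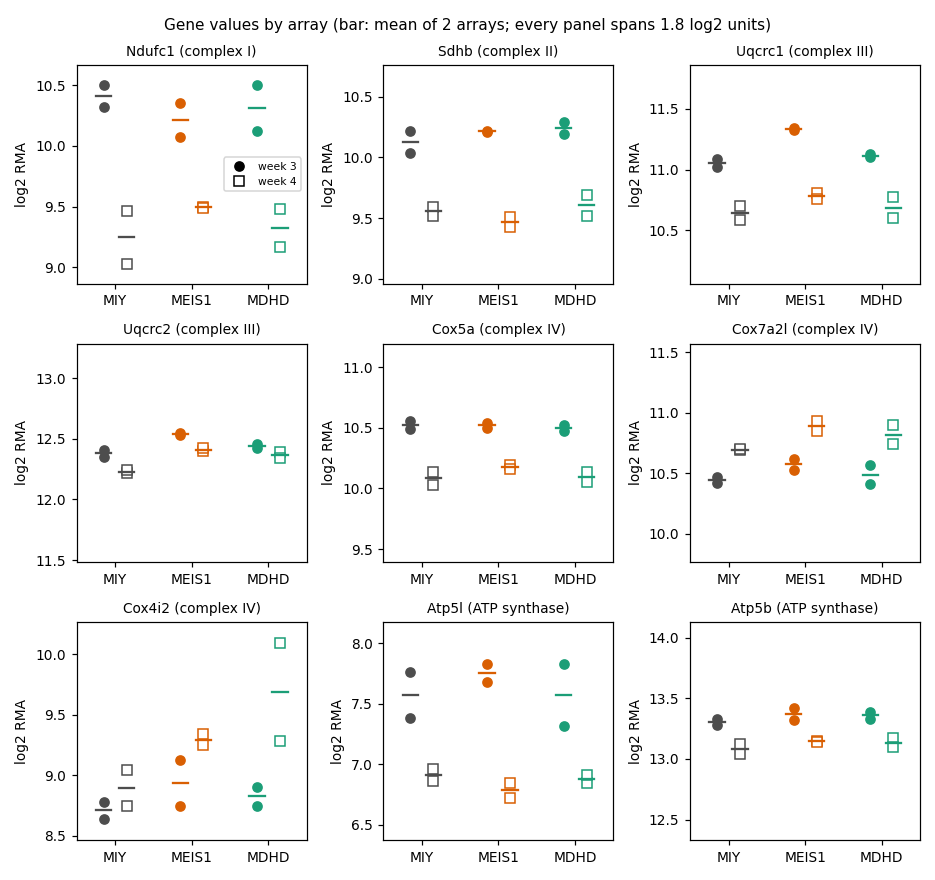
Log2 signal on each of 12 arrays for 9 members, by condition, with filled circles for week 3, open squares for week 4 and bars at the mean of 2 arrays. Each panel spans 1.8 log2 units, and levels are not comparable between panels. Week 4 squares lie below week 3 circles in Ndufc1, Sdhb, Uqcrc1, Cox5a, Atp5l and Atp5b, above them in Cox7a2l, and overlap them in Cox4i2.

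ATP synthase had 14 of 17 genes lower and 0 higher, with a median of -0.30, and 11 to 13 lower under the other scalings. Atp5l, subunit g of the membrane part, ran from 7.32 to 7.83 (median 7.72) at week 3 and from 6.72 to 6.96 (median 6.86) at week 4. Its arrays did not overlap, and the difference was -0.78 ± 0.097 (adjusted p = 3.93e-05), though it passed in 2 of 4 probe sets and became -0.32 (adjusted p = 0.026) with a stricter filter on dim probe sets. Atp5o, the OSCP protein that joins the peripheral stalk to the head, went from 8.79 to 9.21 (median 9.14) to 8.25 to 8.48 (median 8.40), a difference of -0.71 ± 0.073 (adjusted p = 8.40e-06), with 6 of 6 probe sets lower. Atp5k, subunit e, fell from a median of 9.64 to 9.06.

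The alpha and beta subunits, which form the head where ATP is made, fell as well, as did the gamma subunit. Atp5b, the catalytic beta subunit, ran from 13.28 to 13.42 (median 13.33) at week 3 and from 13.04 to 13.17 (median 13.13) at week 4, a difference of -0.22 ± 0.025 (adjusted p = 1.45e-05) with every week 4 array below every week 3 array. The alpha subunit Atp5a1 fell by 0.30 (adjusted p = 4.29e-05). The gamma subunit Atp5c1 fell by 0.19 (adjusted p = 0.00223). It lost its call in 2 of 3 other scalings, and its difference turned to 0.02 after cyclic loess. The 3 genes of the c ring, Atp5g1, Atp5g2 and Atp5g3, fell by 0.34, 0.13 and 0.44. The delta subunit Atp5d (-0.05), Atp5s (-0.12) and Atp5sl (-0.08) did not pass. Nearest to the threshold were Atp5h (-0.14, adjusted p = 0.0463) on the inside, which lost its call in 14 of 20 alternatives, and Cox7b (adjusted p = 0.0544) on the outside.

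Per array, the median of the members, each gene taken relative to its mean over 12 arrays, lay between 0.08 and 0.20 on week 3 arrays and between -0.18 and -0.08 on week 4 arrays. For complex I these were 0.10 to 0.22 and -0.20 to -0.10, and for complex IV 0.04 to 0.08 and -0.10 to -0.02. In each complex, no week 4 array reached a week 3 array. Differences between the complexes were not tested, since genes of a complex are not replicates.

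**Figure D3:**
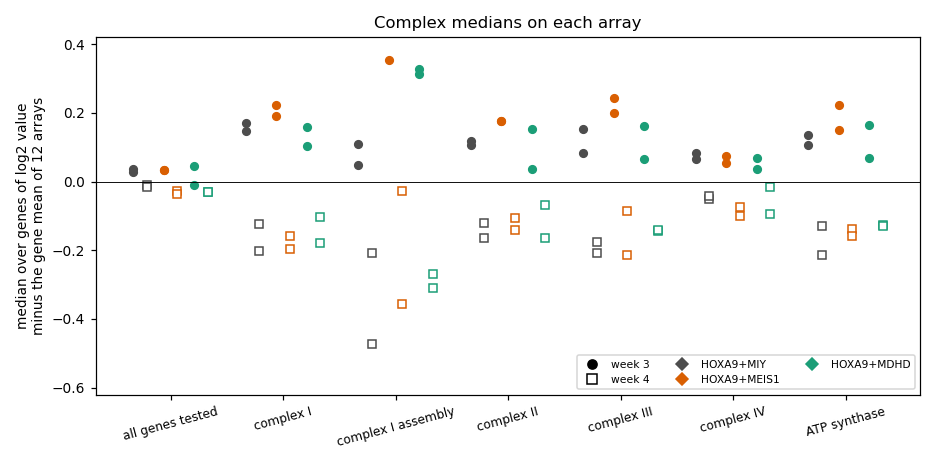
Median over genes of log2 signal relative to each gene's 12-array mean (y axis), for all genes and 6 sets of members, with 1 point per array by condition and week. Week 3 arrays lie above week 4 arrays in each set of members, with the narrowest gap in complex IV.

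Other measures moved with week. The SD of gene values within an array was 1.468 to 1.503 at week 3 and 1.387 to 1.450 at week 4, without overlap, and its part in the result was not tested. Signal level went with the share of all genes lower at week 4, which was 3.23%, 8.67%, 25.3%, 49.3% and 53.9% in 5 bands of equally many genes, from the lowest mean signal to the highest. Members lower by band were 0 of 2, 3 of 5 (60%), 10 of 12 (83.3%), 8 of 16 (50%) and 40 of 49 (81.6%). In the band second from the top the members' share was close to that of all genes. Some marker genes of cell types also differed at week 4, where 11.7% of all genes were higher and 28.1% lower. Late neutrophil genes were higher in 5 of 13 and mast cell genes lower in 4 of 8. The other lists were near or below the shares of all genes. Monocyte genes were higher in 2 of 13 and lower in 1, and erythroid genes lower in 1 of 5. Stem and early progenitor genes were higher in 1 of 12 and lower in 2. Of 6 lymphoid genes 0 were called. The mean log2 of the mast cell list ran from 9.40 to 9.56 at week 3 and from 8.22 to 8.29 at week 4 in HOXA9+MDHD, from 8.59 to 8.61 and 8.28 to 8.44 in HOXA9+MEIS1, and from 8.68 to 9.00 and 8.31 to 8.46 in HOXA9+MIY. The late neutrophil list went in mean log2 from 10.11 to 10.28 up to 10.59 to 10.85 in HOXA9+MIY and from 8.28 to 8.93 up to 9.46 to 10.14 in HOXA9+MDHD, and overlapped between weeks in HOXA9+MEIS1 (7.91 to 7.96 and 7.57 to 8.03). The part of these cells in the result was not tested.

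**Figure D4:**
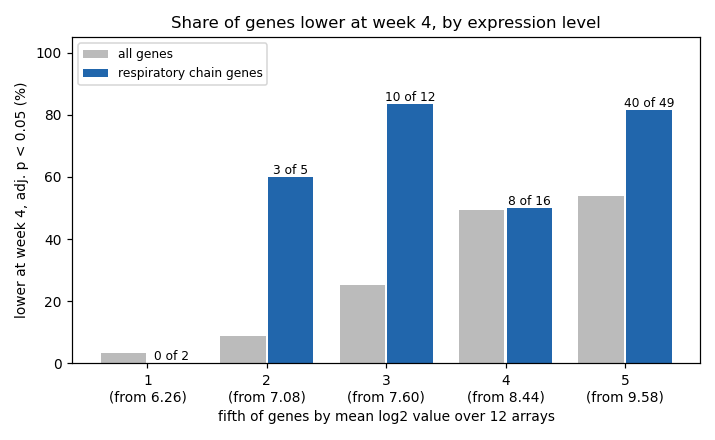
Percent of genes lower at week 4 (y axis, bars from 0) in 5 bands of all genes by mean signal (x axis), for all genes and for members. Members exceed all genes in the highest band (81.6% beside 53.9%), are at 50% beside 49.3% in the band under it, and number only 2 in the lowest.

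Most lists of other mitochondrial genes fell at week 4 as well, where 28.1% of all genes were lower and 11.7% higher. Of mitochondrial ribosomal proteins, which translate the subunits of mitochondrial DNA, 66 of 74 fell and 1 rose (median -0.45), with Mrps22 at -0.96 and Mrpl13 at -0.93. In the tricarboxylic acid cycle and pyruvate dehydrogenase, which supply NADH and succinate, 17 of 18 fell, among them Idh3a (-0.94) and Fh1 (-0.62). Ubiquinone synthesis had 9 of 11 lower, with Coq7 at -0.86. Among carriers and subunits outside the prefixes, 10 of 12 fell and 1 rose, with cytochrome c (Cycs) at -0.64 and the cytochrome of complex III (Cyc1) at -0.60. Assembly factors of complexes II to IV and ATP synthase had 14 of 21 lower, with Lrpprc, which stabilises mitochondrial mRNAs, at -0.67 and the copper chaperone Sco1 at -0.57, and further complex I assembly factors 4 of 5 lower and 1 higher.

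Regulators of mitochondrial biogenesis had 10 of 16 lower and 1 higher, with the coactivator Pprc1 at -0.87 and the mitochondrial DNA factor Tfam at -0.54. Nrf1 itself, at -0.10, was not called, and Gabpa fell by 0.26. Of genes of mitochondrial DNA, 2 of 11 fell and 1 rose, no more than the 28.1% and 11.7% of all genes. Their median was -0.05, with ND3 at -0.38 and ND6 at 0.72. Under the 3 other scalings the medians of all 8 lists stayed below 0, with 55 to 66 of 74 ribosomal proteins and 12 to 17 of 18 genes of the tricarboxylic acid cycle list lower.

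Between conditions few members were called. Adding Meis1 to HOXA9 was set against the empty vector, where 10.8% of all genes were called (5.29% higher, 5.56% lower). Of the 84 members, 2 were higher and 0 lower by limma. An unadjusted p under 0.05 in limma was held by 4567 of all 20711 genes and, at a smaller share, by 12 members. The members' median was 0.02 against -0.01 over all genes. Both called genes, Uqcrc1 and Uqcrc2, encode the paired core proteins of complex III, whose median was 0.12.

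The Uqcrc2 signal with the empty vector was 12.35 and 12.41 at week 3 and 12.22 and 12.24 at week 4. In HOXA9+MEIS1 it had 12.55 and 12.53, then 12.40 and 12.42. In HOXA9+MDHD it had 12.46 and 12.42, then 12.39 and 12.34. Within each week both HOXA9+MEIS1 arrays were above both HOXA9+MIY arrays, with HOXA9+MDHD between them, while pooled over weeks the conditions overlapped. The difference between HOXA9+MEIS1 and HOXA9+MIY was 0.17 ± 0.030 (adjusted p = 0.00318; 1.12-fold), and 18 of 18 probe sets were higher, 4 past the test. The call held in all 12 fits that left out an array.

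Uqcrc1 had 11.02 and 11.09, then 10.70 and 10.58 in HOXA9+MIY. In HOXA9+MEIS1 it had 11.33 and 11.34, then 10.81 and 10.76. In HOXA9+MDHD it had 11.13 and 11.10, then 10.77 and 10.60. HOXA9+MEIS1 was the highest within each week, except that 1 HOXA9+MDHD array reached into its week 4 range. The difference from HOXA9+MIY was 0.21 ± 0.053 (adjusted p = 0.0205; 1.16-fold), with 19 of 21 probe sets higher by sign, 3 of them past the test. The Uqcrc1 call was lost in 5 of 12 fits that left out an array: HOXA9+MIY week 3 replicate 1 (adjusted p = 0.077), week 3 replicate 2 (0.0503) or week 4 replicate 2 (0.0666), or HOXA9+MEIS1 week 3 replicate 1 (0.0666) or replicate 2 (0.0704). The part of the neutrophil, monocyte and progenitor markers that moved in the same comparison was not tested. Without a term for week, both Uqcrc1 and Uqcrc2 lost their call (0.805 and 0.167).

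Other members named in that comparison did not pass. In complex III, Uqcrh had 0.17 (adjusted p = 0.0737). The largest positive difference in ATP synthase was that of Atp5s, 0.32 (0.106), and among complex I genes that of Ndufb5, 0.16 (0.0761). In complex IV it was that of Cox4i2, 0.32 (0.342). The assembly factor Ndufaf1 had 0.25 (0.0991). On the other side, the most negative were Ndufb10 of complex I at -0.14 (0.437), Cox6b2 of complex IV at -0.25 (0.47), Uqcrq of complex III at -0.09 and Atp5g1 of ATP synthase at -0.12. No member separated all 4 HOXA9+MEIS1 arrays from all 4 HOXA9+MIY arrays, where 11% of all genes did (5.04% above, 5.96% below). Each group of 4 holds both weeks, and in 55 members all week 4 arrays lay below all week 3 arrays. Such groups could separate only if the conditions differed by more than the weeks did. The count thus says little about the members' difference between conditions. Over all genes 5.29% were higher in this comparison. Of the other mitochondrial lists, the tricarboxylic acid cycle had 4 of 18 higher, with pyruvate carboxylase Pcx at 0.40. Assembly factors had 3 of 21 higher, with Bcs1l, which inserts the Rieske protein into complex III, at 0.22. Biogenesis had 2 of 16 higher, with the coactivator Ppargc1a at 0.91 and Tfb2m at 0.23. The carriers had 1 of 12 higher. By limma 0 were called of 74 mitochondrial ribosomal proteins, 11 ubiquinone genes, 11 mitochondrially encoded subunits and 5 further complex I assembly factors, and 0 genes of any of the 8 lists were lower.

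With the Meis1 that lacks its homeodomain, no member passed the test. Against HOXA9+MIY, 1.91% of all genes (0.908% higher, 1% lower) and 0 of 84 members were called by limma. An unadjusted p under 0.05 in limma was held by 2770 of all 20711 genes and, at a smaller share, by 5 members. They were Atp5f1 (0.11), Cox4i2 (0.45), Ndufaf1 (0.19), Uqcrb (0.10) and Uqcrc2 (0.10). Cox4i2 had the largest difference, 0.45 ± 0.177 (adjusted p = 0.275), with the array values given above. Ndufv3, an accessory subunit of complex I, had 9.36, 9.37, 9.34 and 9.39 in HOXA9+MIY and 9.27, 8.80, 9.32 and 9.29 in HOXA9+MDHD, so that all 4 arrays lay below, yet its difference of -0.20 ± 0.104 had adjusted p = 0.458. Over all genes 4.18% were apart in that way (1.62% above, 2.55% below). Of the markers, 5 of 13 late neutrophil genes were lower, 3 of 13 monocyte genes lower and 1 higher, and 5 of 12 stem and early progenitor genes higher, Meis1 among them, and 1 lower. Of 5 erythroid genes 1 was higher, and of the mast cell and lymphoid genes 0 were called. The members ran from -0.20 to 0.45. Cox6b2 had 7.79 and 7.99 on the HOXA9+MDHD arrays of number 1 and 6.88 and 7.34 on those of number 2, on either side of the arrays with the empty vector of the same week (7.43 and 7.53, then 7.76 and 7.61). Its difference of -0.08 (adjusted p = 0.901) became -0.47 without both arrays of number 1 (0.0296) and 0.31 without both of number 2 (0.0255). All 8 lists of other mitochondrial genes had 0 called here.

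Full-length Meis1 against the form without homeodomain gave 4.36% of all genes (2.24% higher, 2.11% lower) and 0 of 84 members by limma. An unadjusted p under 0.05 in limma was held by 3184 of all 20711 genes and, at a smaller share, by 7 members. These were Atp5s (0.25), Cox6b1 (-0.11), Ndufs4 (-0.17), Ndufv3 (0.23), Sdhc (0.10), Uqcrc1 (0.16, adjusted p = 0.142) and Uqcrc2 (0.07, adjusted p = 0.27). The median of the members was 0.02, and 0 members had all 4 arrays of a condition apart from the other, where 5.2% of all genes did (2.67% above, 2.53% below). These groups of 4 also hold both weeks, so this count too says little about the conditions. The 3 comparisons share arrays, so these values are not independent of those above.

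**Figure D5:**
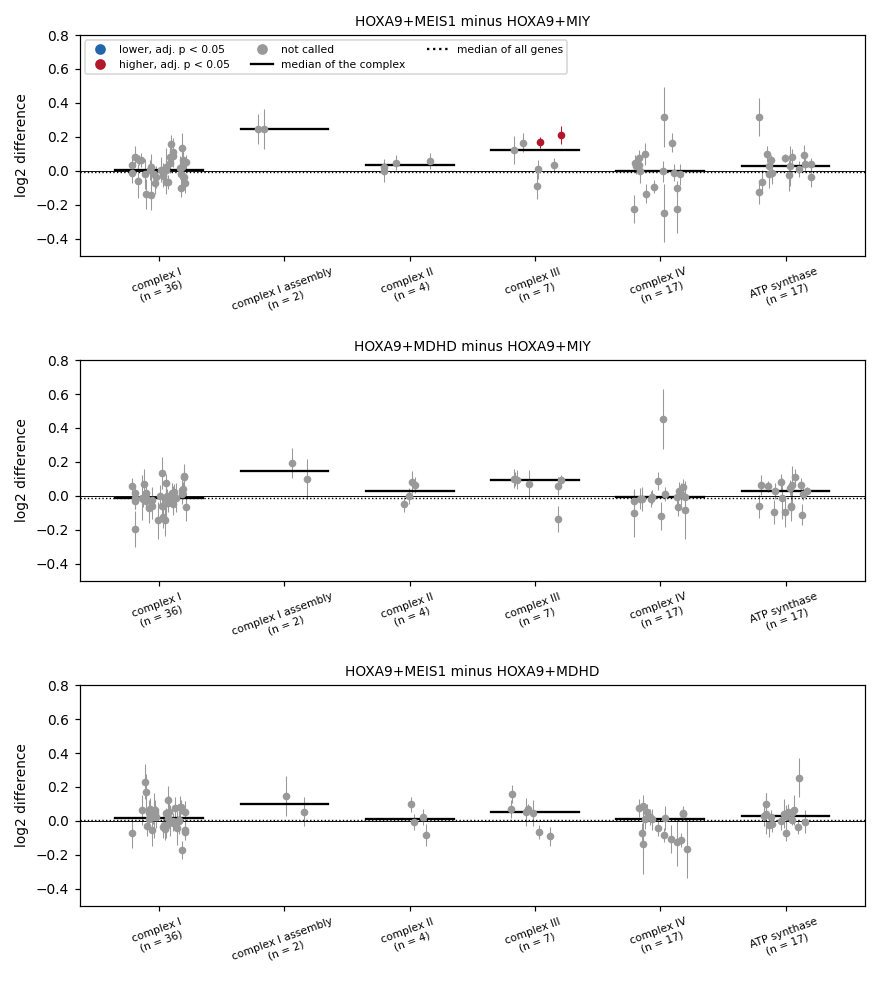
Differences in log2 signal between conditions (y axis) for 83 members by complex in 3 panels, 1 per comparison, with limma's standard error as error bars, black bars at complex medians and a dotted line at the median of all genes. Points scatter around 0, and only Uqcrc1 and Uqcrc2 of complex III were called, in HOXA9+MEIS1 against HOXA9+MIY.

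Whether a difference between conditions changed from week 3 to week 4 was tested by interaction terms. No gene was called by limma in any of the 3 comparisons, and 0, 1 and 5 members had an unadjusted p under 0.05. How many of all genes had such a p was not counted. The lowest adjusted p of a member was 0.79, 0.998 and 0.647. Members thus gave no called difference between conditions in their fall, though with 2 arrays per condition and week this test is coarse. The week difference of Ndufc1 was -1.16 with the empty vector, -0.71 with Meis1 and -0.98 with the form without homeodomain. Atp5l had -0.66, -0.97 and -0.69, and Uqcr -0.47, -0.55 and -0.49. Cox4i2 had 0.19, 0.35 and 0.86.

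Promoter letters were also counted by outcome at week 4. Among the 50 members with a window that fell, 8 held the NRF1 core (16%), 14 the ETS letters (28%), 9 the YY1 letters (18%) and 14 the MEIS letters (28%). Among the 19 others these counts were 2, 3, 2 and 2. The numbers are small and were not tested.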

How the data were processed

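The 12 arrays were Affymetrix mouse exon arrays. According to the submitters' processing notes the authors used RMA in Expression Console, of unstated version, and deposited log2 signals per probe set. Of 1256831 probe sets, 318760 named 1 gene symbol in the platform annotation. Those with a mean log2 above 6.2592 (the 50th percentile) were kept, 233798 in all and 676 of 744 for members. Gene values came from median polish (at most 50 iterations). Differences were tested two-sided in limma 3.58.1 (R 4.3.3), by lmFit and then eBayes with trend, with condition and week as terms. The p-values were adjusted over 20711 genes. The procedure was also run on simulated independent values with few changed genes, unlike these data, and no result here rests on that run. A second fit ran over probe sets. The number of arrays limits the precision. Alternatives covered the filter, the gene summary, scaling, week and replicate terms and leaving out arrays. The 5 signal bands and the fits without both HOXA9+MDHD arrays of a number were added after seeing the data. Members and gene lists were chosen with earlier results of these data known. The rule for named members took those called in a comparison between conditions, the 12 largest week differences, the extremes of each complex between conditions, the core subunits and those with tissue-restricted copies. Not all of their values between conditions are printed, and other members were chosen after their values were seen. Promoters came from RefSeq (GRCm38.p6), with 5 members matched by synonym.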

Additional observations from a re-analysis of the deposited data

Results flagged for a closer look

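In groups of 4 arrays, the gap of the extreme array to its neighbour was compared with the group's range in 165 groups (a gene in a condition), and 2 stood apart. Chance flags about 1 in 20 groups of 4 like arrays, a rate that does not hold here because each group mixes 2 weeks. Atp5h, subunit d of ATP synthase, was at 8.51 on the HOXA9+MEIS1 week 3 replicate 1 array, above its 3 other arrays. Ndufv3 was at 8.80 on the HOXA9+MDHD week 3 replicate 2 array, below its 3 others.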

How the results depend on the processing

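Of 84 members, 61 to 65 were called at week 4 when each array was left out in turn. In HOXA9+MEIS1 against HOXA9+MIY, the 2 calls became 5 with quantile normalization, 4 with cyclic loess, 6 with these groups fitted alone, 0 without the week term, 1 on week 3 arrays alone and 0 on week 4 arrays alone, and 1 to 4 when an array was left out. The 0 calls of HOXA9+MEIS1 against HOXA9+MDHD became 1 with quantile normalization or cyclic loess, and 0 to 1 with an array left out (1 without HOXA9+MDHD week 4 replicate 1). The 0 calls of HOXA9+MDHD against HOXA9+MIY became 1 with cyclic loess, and 1 again when the pair of HOXA9+MDHD arrays of number 1, or that of number 2, was left out. Among the 55 members named by the rule, reversed values were Ndufs3 at week 4 (0.1486 with quantile normalization, 0.2007 with cyclic loess), Atp5c1 at week 4 (0.0177 with cyclic loess) and Cox6b2 in HOXA9+MDHD against HOXA9+MIY (0.3100 without both arrays of number 2). Over all 84 members, 1 of those called at week 4 changed sign with quantile normalization. With cyclic loess 2 did, Atp5c1 among them. The cause was not tested. The labels do not say that equal replicate numbers pair arrays. Deviations of arrays of the same week and number in different conditions correlated at -0.315 to -0.015 (-0.271 to 0.047 for unequal numbers). Across weeks within a condition they correlated at -0.396 to 0.058 for equal numbers and -0.349 to -0.238 for unequal ones, and in Cox6b2 the HOXA9+MDHD arrays of a number went together in both weeks. With the replicate number as a block 2, 0, 0 and 63 members were called in the 4 comparisons. With 2 arrays per condition and week, a small change of slope is not detectable.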
